A study of Mus musculus with 6 samples.

Results

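Pressure overload of the wild-type (WT) left ventricle was read from 3 of the 6 arrays of the series, 2 arrays labelled WT TAC and 1 labelled WT Sham, chosen by these labels alone. TAC (transverse aortic constriction) narrows the aortic arch with a suture, and sham surgery leaves out the narrowing. All 6 arrays were of left ventricles from mice labelled male c57/BL6, operated on at 6 to 8 weeks of age and harvested 3 weeks later. The other 3 arrays, 2 KO TAC and 1 KO Sham, came from mice with a global deletion of Kdm3a, a demethylase of histone H3 lysine 9. The study's own text gives a later harvest for its expression profiling, and knockouts both on a mixed FVB and C57 background and as a further line in C57, so time and strain are given here only as the labels state them. The labels do not say whether the replicate arrays came from separate animals. The p-values then cover only array-to-array spread, which may be technical.

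A constricted aorta raises the pressure against which the left ventricle ejects, and the ventricle thickens over the following weeks. An adult heart draws most of its ATP from mitochondrial oxidation of fatty acids, and an overloaded heart is known for using less fat and more glucose. It is also known for a return of fetal muscle genes, a build-up of matrix by fibroblasts, altered ion channels and recruitment of leukocytes. The matrix and fetal genes are the best known of these, and most of the account is given to the other gene groups.

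Expression was measured for 9625 genes above background on Illumina mouse bead arrays. A gene's value is the deposited intensity of its brightest probe, on a linear scale. Fold changes and log2 differences compare the mean of the WT TAC arrays with the WT Sham array after background correction. Each log2 difference is given ± its standard error for 2 WT TAC arrays against 1 WT Sham array. The limma fit covers all 6 arrays, and its spread comes from the WT TAC pair and the KO TAC pair together. Because background is subtracted, the fold of a dim gene exceeds the ratio of its printed intensities. Where a gene was not well above background in WT Sham, or on both WT TAC arrays, its fold was taken against the lowest level above background and is given as "at least". Calls are also given with each WT TAC array left out in turn. A gene was called when its adjusted p was under 0.05 and both WT TAC arrays lay on the same side of the WT Sham array.

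By this rule 1482 genes (15.4%) were higher and 1524 genes (15.8%) lower in WT TAC than in WT Sham. The WT TAC arrays both lay more than 2-fold above the WT Sham array for 779 genes (8.09%) and more than 2-fold below it for 490 genes (5.09%), of which 770 and 482 were called. These shares are the background against which the counts within a gene group are read. Over all genes the median log2 difference was -0.07. Of the called genes, 368 of the higher ones were below background in WT Sham and 154 of the lower ones were below background in WT TAC, and a gene that entered the analysis through the arrays where it was bright had little room not to differ. The WT Sham array had no replicate, so it was assumed to vary as much as replicated arrays do.

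The WT TAC arrays agreed closely with each other. They lay on the same side of the WT Sham array for 8496 genes (88.3%), both above it for 3790 and both below it for 4706. They lay on opposite sides for 1123 genes, and none of these was more than 1.5-fold away on both arrays. The gap between the WT TAC arrays had a median of 0.16 on the log2 scale, and it passed 2-fold in 13 genes, of which 6 were called. Among called genes, WT TAC replicate 2 lay farther from WT Sham in 2038 and replicate 1 in 967. Left with replicate 1 alone the fit called 820 genes higher and 629 lower, and left with replicate 2 alone it called 1067 higher and 950 lower.

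**Figure D1:**
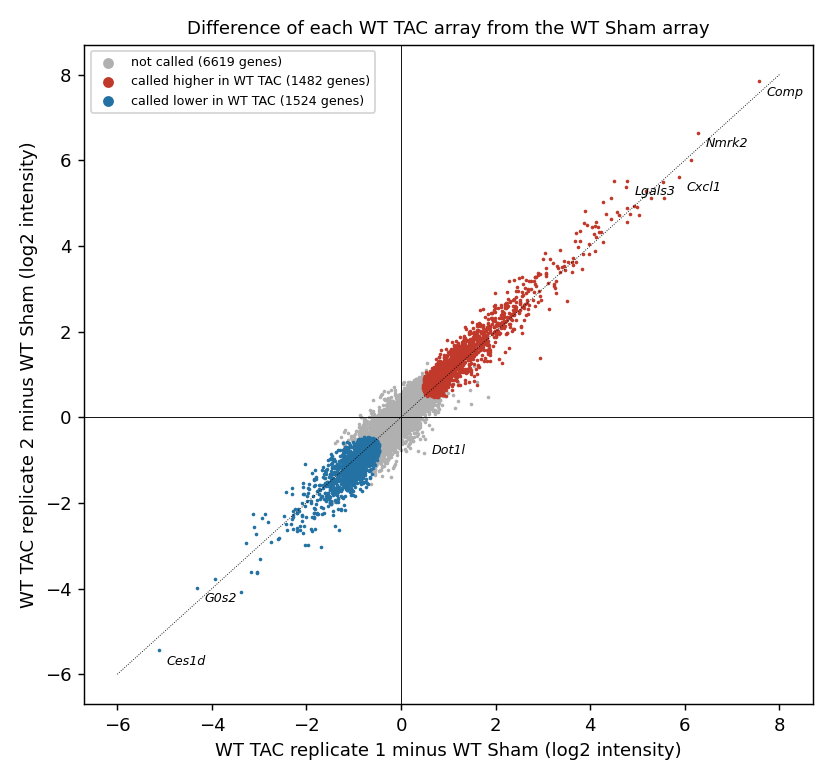
Each point is a gene, placed by its log2 difference from the WT Sham array on WT TAC replicate 1 (x axis) and on WT TAC replicate 2 (y axis), coloured by whether it was called higher (1482), lower (1524) or neither. The points follow the dotted line of equality, and none lies more than 1.5-fold from WT Sham in opposite directions on both arrays.

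As a pair, the WT TAC arrays were unlike the rest of the series. Across genes they correlated with each other at r = 0.993, the other 4 arrays with one another at 0.984 to 0.995, and the WT TAC arrays with those at 0.917 to 0.931 (Pearson, log2 scale, as a description, since genes of 1 pair of arrays are not independent). Between 14960 and 16015 probes were above background on each of the 6 arrays.

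Heart muscle genes were bright on all 3 arrays. Myl2, the ventricular myosin light chain, had intensities of 39781 and 38976 in WT TAC, against 42566 in WT Sham, and Myoz2, a Z-disc protein of striated muscle, 15718 and 14316 in WT TAC, against 14819.7 in WT Sham. Others were lower in WT TAC: Myh6, the adult myosin heavy chain, had 19904 and 16428 in WT TAC, against 29495 in WT Sham (1.63-fold lower, log2 difference -0.71 ± 0.19, adjusted p = 0.0296), and Tnni3, cardiac troponin I, 3777 and 4128 in WT TAC, against 6119 in WT Sham (1.56-fold lower, log2 difference -0.65 ± 0.17, adjusted p = 0.0323). The Myh6 call was lost without WT TAC replicate 2 (adjusted p = 0.122), and that of Tnni3 without replicate 1 (adjusted p = 0.112) and without replicate 2 (adjusted p = 0.0852). No probe carried the symbol Tnnt2. Of 5 atrial markers measured 3 were higher and 1 lower, and they summed to 40844 and 44482 in WT TAC, against 10991 in WT Sham. Most of that sum was Nppa, the natriuretic peptide that stressed ventricle also makes, with 37560.0 and 40864 in WT TAC, against 9185 in WT Sham (4.3-fold higher, log2 difference 2.11 ± 0.35, adjusted p = 0.00598). Intensities did not exceed 43297 on any array, so differences among the brightest genes, such as Myl2, are compressed. Marker lists of other cells also differed between WT TAC and WT Sham. The summed intensity of 22 fibroblast markers was 44135 and 46623 in WT TAC, against 28439 in WT Sham. Of these markers 11 were higher and 2 lower (Scara5 and Clec3b), and Lum and Dpt were among those not called. The sum of 27 endothelial genes was 53881 and 59026 in WT TAC, against 39101 in WT Sham, with 12 higher and 2 lower. Pecam1, Cdh5 and Emcn, named after their values were seen, were among those not called. The sum of 22 macrophage genes was 23286 and 24292 in WT TAC, against 14998 in WT Sham, with 11 higher and 0 lower. Mrc1 was not called, nor were Adgre1 and Csf1r, named after their values were seen. The sum of 9 neutrophil genes was 10315 and 15242 in WT TAC, against 1549 in WT Sham. Red cell and platelet markers summed to 74268 and 75039 in WT TAC, against 76189 in WT Sham, and 3 of 8 were higher and 0 lower (Slc4a1, Alas2 and Pf4, log2 differences 1.26, 0.96 and 0.93). Without WT TAC replicate 2 the adjusted p of Slc4a1 was 0.0513 and that of Alas2 0.0955. The globins Hba-a1 and Hbb-bt, which made up most of that sum, differed by -0.08 ± 0.17, adjusted p = 0.757, and by -0.03 ± 0.16, adjusted p = 0.9. In a bulk sample fewer cells of a type and less RNA per cell cannot be told apart, and the part of these shifts in the results that follow was not tested.

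Kdm3a itself did not pass the test in WT hearts. Its brightest probe had intensities of 466 and 486 in WT TAC, against 502 in WT Sham (log2 difference -0.10 ± 0.17, adjusted p = 0.703). Another of its probes, ILMN_3118169, was above background on the WT arrays (296 and 264 in WT TAC, against 292 in WT Sham) and below it on the KO arrays (137 and 143 in KO TAC, against 129 in KO Sham). The brightest probe stayed above background on the KO arrays, at 394 and 361 in KO TAC, against 389.9 in KO Sham. Among 12 measured writers, erasers and readers of histone H3 lysine 9 methylation, 1 was called higher, the methyltransferase gene Prdm2, and 1 lower, the demethylase gene Phf2 (0 higher and 1 lower when WT TAC replicate 1 was left out, 0 and 0 when replicate 2 was).

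Genes of fatty acid oxidation were lower. Of 28 measured genes of fatty acid uptake and beta-oxidation (31 listed), 19 were lower and 0 higher, with a median log2 difference of -0.88 (0 higher and 14 lower when WT TAC replicate 1 was left out, 0 and 10 when replicate 2 was). Acaa2, the thiolase that makes the last cut of mitochondrial beta-oxidation, had intensities of 2276 and 1765 in WT TAC, against 7935 in WT Sham (4.12-fold lower, log2 difference -2.04 ± 0.21, adjusted p = 0.00127). Cpt2, which reforms acyl-CoA inside the mitochondrion, had 4362 and 3459.5 in WT TAC, against 9717 in WT Sham (2.54-fold lower, log2 difference -1.35 ± 0.21, adjusted p = 0.00477). Both WT TAC arrays lay below WT Sham for both genes. Crat, carnitine acetyltransferase, was 3.2-fold lower, Eci1, an isomerase for unsaturated fats, 2.84-fold lower and Decr1, a reductase for unsaturated fats, 2.65-fold lower. Genes of fatty acid supply were not called. Lpl, the lipase of the capillary wall, had intensities of 39247 and 34293 in WT TAC, against 37385 in WT Sham (log2 difference -0.03 ± 0.17, adjusted p = 0.921). Fabp3, the fatty acid carrier of the heart cytosol, had 32398 and 37191 in WT TAC, against 38676 in WT Sham (log2 difference -0.16 ± 0.19, adjusted p = 0.553).

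Genes for stored fat included Ces1d, the largest fall of all genes tested. Of 20 measured genes of lipolysis and lipid droplets, 10 were lower and 2 higher (median log2 difference -0.78, 1 higher and 10 lower when WT TAC replicate 1 was left out, 1 and 9 when replicate 2 was). Ces1d, a carboxylesterase that hydrolyses triglyceride, had intensities of 229 and 203 in WT TAC, against 4422 in WT Sham. G0s2, the inhibitor of the lipase ATGL, had 244 and 279 in WT TAC, against 2879 in WT Sham. WT Sham was high and both WT TAC arrays were near the background level for these genes (38.8-fold and 17.7-fold lower). Fitm2, which helps bud lipid droplets from the ER, was 3.53-fold lower and Plin5, which coats droplets at their contact with mitochondria, 2.42-fold lower. Pnpla2, which encodes ATGL, had intensities of 6854 and 7063 in WT TAC, against 7672 in WT Sham and was not called (log2 difference -0.14 ± 0.16, adjusted p = 0.534). Hilpda, a hypoxia-induced droplet protein that inhibits ATGL, moved the other way, with 925 and 1067 in WT TAC, against 429 in WT Sham (2.74-fold higher, log2 difference 1.45 ± 0.19, adjusted p = 0.00269).

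The thioesterases that release fatty acids from acyl-CoA split. Of 11 measured, 4 were lower and 1 higher. Acot1, the cytosolic enzyme induced by PPAR-alpha, had intensities of 233 and 247 in WT TAC, against 2077 in WT Sham (14.5-fold lower, log2 difference -3.86 ± 0.17, adjusted p = 8.76e-05). Its mitochondrial relative Acot2 had 288 and 239.9 in WT TAC, against 497 in WT Sham (2.48-fold lower, log2 difference -1.31 ± 0.24, adjusted p = 0.00885). Another Acot2 probe lay at 0.53, and the sequences of these relatives are close, so both values are uncertain. Acot10 rose 2.47-fold, with intensities of 1202 and 1221 in WT TAC, against 552 in WT Sham. Acot13, with 12488 and 12790.4 in WT TAC, against 14406 in WT Sham, was not called (log2 difference -0.19 ± 0.16, adjusted p = 0.41). In the peroxisome, the other site of beta-oxidation, 4 of 16 genes were lower (0 higher and 3 lower when WT TAC replicate 1 was left out, 0 and 2 when replicate 2 was), among them Pxmp2, a membrane channel (2.14-fold). Hsd17b4, the bifunctional enzyme, was not called (log2 difference -0.12 ± 0.17, adjusted p = 0.643).

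Regulators that drive these genes moved in part. Nuclear receptors of the PPAR and ERR families, with the coactivators of the PGC-1 family, switch on mitochondrial and fatty acid genes in heart. Of 23 measured regulators 9 were lower and 1 higher (median log2 difference -0.64, 0 higher and 9 lower when WT TAC replicate 1 was left out, 0 and 2 when replicate 2 was). Rxrg, a retinoid X receptor that pairs with PPARs, had intensities of 504 and 445 in WT TAC, against 1191 in WT Sham (2.94-fold lower, log2 difference -1.56 ± 0.19, adjusted p = 0.00213). Mlxipl, the glucose-sensing factor ChREBP, had 254 and 213 in WT TAC, against 488 in WT Sham (3.0-fold lower, log2 difference -1.59 ± 0.22, adjusted p = 0.00374). Ppargc1b (PGC-1 beta) had intensities of 871 and 654 in WT TAC, against 1567 in WT Sham and Esrra (ERR alpha) 2130.0 and 1746 in WT TAC, against 3449 in WT Sham, and without replicate 2 their adjusted p-values were 0.0693 and 0.0785. Ppara and Ppargc1a, chosen here after their values were seen, were not called: Ppara had intensities of 157 and 139 in WT TAC, against 176 in WT Sham, below background on replicate 2 (adjusted p = 0.0753, or 0.0328 without replicate 1), and Ppargc1a 950.4 and 664 in WT TAC, against 979 in WT Sham (log2 difference -0.35 ± 0.26, adjusted p = 0.351).

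**Figure D2:**
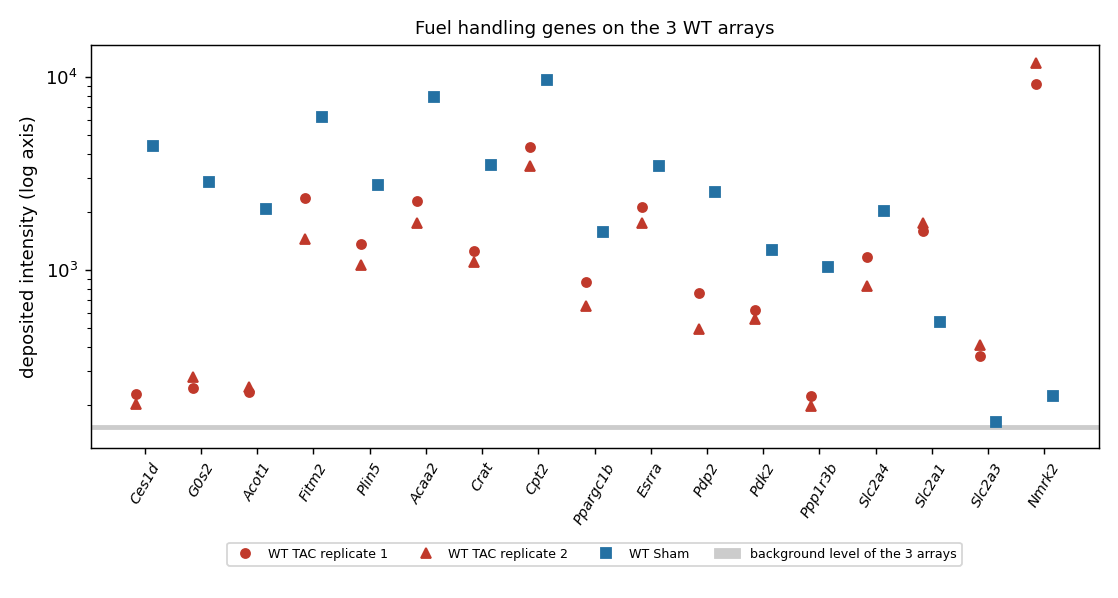
Deposited intensity (log axis) of 17 genes of fat, glucose and NAD handling on WT TAC replicate 1 (circles), WT TAC replicate 2 (triangles) and WT Sham (squares), with the background level as a grey band. For Ces1d, G0s2 and Acot1 both WT TAC arrays lie near the background level, and for Slc2a1, Slc2a3 and Nmrk2 they lie above WT Sham.

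Subunits of the respiratory chain moved little. Of 76 measured subunits and assembly factors of oxidative phosphorylation, 16 were lower and 0 higher (median log2 difference -0.34, 0 higher and 6 lower when WT TAC replicate 1 was left out, 0 and 1 when replicate 2 was). Ndufb4, a subunit of complex I, had intensities of 451 and 380.2 in WT TAC, against 758 in WT Sham (2.11-fold lower, log2 difference -1.08 ± 0.20, adjusted p = 0.00853). The abundant chains Atp5b of ATP synthase and Cox6a2 of cytochrome oxidase were not called (log2 differences 0.04 ± 0.16, adjusted p = 0.88, and 0.11 ± 0.16, adjusted p = 0.64), and their intensities of 40446 and 39552 in WT TAC, against 38976 in WT Sham, and of 36376 and 37560.0 in WT TAC, against 34293 in WT Sham, lie in the compressed top of the scale.

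The machinery that builds mitochondrial proteins moved by a like amount. Of 73 mitochondrial ribosomal proteins 23 were lower and 0 higher (median log2 difference -0.46, 0 higher and 7 lower when WT TAC replicate 1 was left out, 0 and 3 when replicate 2 was). Mrpl49 had intensities of 1009.7 and 1018 in WT TAC, against 2071 in WT Sham (2.16-fold lower, log2 difference -1.11 ± 0.16, adjusted p = 0.00418). Mrpl57 had 172 and 169.6 in WT TAC, against 271 in WT Sham (2.49-fold lower, log2 difference -1.32 ± 0.16, adjusted p = 0.00222). Hspe1 and Hspd1, the cochaperone and chaperone that fold proteins in the matrix and share a promoter, were 2.89-fold and 2.45-fold lower, with intensities of 1037 and 1059 in WT TAC, against 2837 in WT Sham for Hspe1, and 4521 and 3430.2 in WT TAC, against 9494 in WT Sham for Hspd1. Of 55 cytosolic ribosomal proteins 4 were higher and 1 lower (median log2 difference 0.19, 3 higher and 1 lower when WT TAC replicate 1 was left out, 2 and 1 when replicate 2 was). The lower one was Rpl3l, a muscle form of ribosomal protein L3, with 7124 and 4056 in WT TAC, against 19198 in WT Sham (3.62-fold lower, log2 difference -1.86 ± 0.32, adjusted p = 0.00744). Rpl3, the general form, had 16139 and 17570.4 in WT TAC, against 7280.3 in WT Sham (2.33-fold higher, log2 difference 1.22 ± 0.17, adjusted p = 0.00329).

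Carriers of the inner membrane and enzymes of branched-chain amino acid breakdown were lower in part. Of 33 mitochondrial carriers 11 were lower and 2 higher (1 higher and 9 lower when WT TAC replicate 1 was left out, 1 and 5 when replicate 2 was). Slc25a42, which imports coenzyme A, had intensities of 242 and 188 in WT TAC, against 619.8 in WT Sham (4.77-fold lower, log2 difference -2.25 ± 0.30, adjusted p = 0.00318). Slc25a26, which imports S-adenosylmethionine, was 2.45-fold lower. Slc25a25, a calcium-regulated ATP-Mg carrier, was higher, with 695 and 518 in WT TAC, against 271 in WT Sham (2.95-fold higher, log2 difference 1.56 ± 0.24, adjusted p = 0.00484). Of 19 enzymes for leucine, isoleucine and valine, 10 were lower and 2 higher (median log2 difference -0.65, 2 higher and 6 lower when WT TAC replicate 1 was left out, 1 and 4 when replicate 2 was). Bckdhb and Dbt, chains of the branched-chain keto acid dehydrogenase, were lower. Bckdhb had intensities of 563 and 597 in WT TAC, against 1341 in WT Sham (2.6-fold lower, log2 difference -1.38 ± 0.17, adjusted p = 0.00213). Dbt had 744 and 564 in WT TAC, against 1918 in WT Sham (3.34-fold lower, log2 difference -1.74 ± 0.24, adjusted p = 0.00344). Ppm1k, the phosphatase that activates that complex, was 2.75-fold lower, and the inhibitory kinase Bckdk was not called (log2 difference -0.47 ± 0.19, adjusted p = 0.105). Auh, an RNA-binding hydratase of leucine breakdown, was at least 3.34-fold higher, with 264 and 285 in WT TAC, against 139 in WT Sham.

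Genes of the citric acid cycle were lower in part, and some that regulate the entry of pyruvate into it were too. Pyruvate dehydrogenase, the enzyme of that entry, is turned off by Pdk kinases and on by Pdp phosphatases. Pdp2 had intensities of 764 and 494 in WT TAC, against 2548 in WT Sham (4.81-fold lower, log2 difference -2.27 ± 0.31, adjusted p = 0.00323). Pdk2 had 620.0 and 559 in WT TAC, against 1267 in WT Sham (2.4-fold lower, log2 difference -1.26 ± 0.17, adjusted p = 0.00326), so a kinase and a phosphatase were both lower. Pdk3 was not above background in WT Sham, with 208 and 232 in WT TAC, against 138 in WT Sham (at least 2.27-fold higher, adjusted p = 0.00346). Pdk4, chosen here after its values were seen, had 7713 and 6003 in WT TAC, against 3418 in WT Sham and was not called (log2 difference 1.02 ± 0.43, adjusted p = 0.115), although with only the 3 WT arrays its adjusted p was 0.00965. Pdk1 and Pdp1, likewise chosen, were not called either (log2 differences 0.05 ± 0.24, adjusted p = 0.902, and -0.20 ± 0.17, adjusted p = 0.425). Of the 28 genes of the cycle and of pyruvate entry 10 were lower and 1 higher (median log2 difference -0.50, 1 higher and 10 lower when WT TAC replicate 1 was left out, 1 and 3 when replicate 2 was).

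Glucose transporters moved in both directions. Slc2a1 (GLUT1), the transporter of fetal heart and most other cells, had intensities of 1592 and 1765 in WT TAC, against 540.1 in WT Sham (3.6-fold higher, log2 difference 1.85 ± 0.17, adjusted p = 0.000874). Slc2a3 (GLUT3) had 357 and 409 in WT TAC, against 162 in WT Sham (4.76-fold higher, log2 difference 2.25 ± 0.18, adjusted p = 0.00056). Slc2a4 (GLUT4), the insulin-regulated transporter of adult muscle, had 1167 and 827 in WT TAC, against 2029.8 in WT Sham (2.2-fold lower, log2 difference -1.13 ± 0.25, adjusted p = 0.0165), and without WT TAC replicate 2 its adjusted p was 0.0524. Among enzymes of the pathway, Eno3, muscle enolase, was 2.33-fold lower, and Fbp2, muscle fructose bisphosphatase, 5.25-fold lower with intensities of 306 and 234 in WT TAC, against 955 in WT Sham. Gapdh, Aldoa (muscle aldolase) and Tpi1 were not called (log2 differences 0.25 ± 0.16, adjusted p = 0.27, then -0.14 ± 0.17, adjusted p = 0.578, and -0.02 ± 0.16, adjusted p = 0.929). In all, 3 of 23 genes were higher and 6 lower (2 higher and 4 lower when WT TAC replicate 1 was left out, 2 and 2 when replicate 2 was).

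Glycogen genes were lower at the targeting subunits of protein phosphatase 1, which bring that enzyme to the glycogen particle. Ppp1r3b had intensities of 222 and 198 in WT TAC, against 1032 in WT Sham (8.79-fold lower, log2 difference -3.14 ± 0.23, adjusted p = 0.000455). Ppp1r3d had 550.2 and 474 in WT TAC, against 1134 in WT Sham (2.53-fold lower, log2 difference -1.34 ± 0.22, adjusted p = 0.00601). Ppp1r3c, with 11716 and 10892 in WT TAC, against 11782 in WT Sham, was not called (log2 difference -0.06 ± 0.23, adjusted p = 0.859). Of 19 measured glycogen genes in all, 1 was higher and 4 lower (1 higher and 4 lower when WT TAC replicate 1 was left out, 0 and 2 when replicate 2 was).

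Creatine kinases and NAD synthesis held some of the largest single changes in metabolism. Ckmt1, the mitochondrial creatine kinase of brain and other tissues, was below background in WT Sham, with intensities of 451 and 621 in WT TAC, against 122 in WT Sham (at least 8.3-fold higher, adjusted p = 0.000246). Ckm, the muscle cytosolic form, moved the other way, with 6159.9 and 4497 in WT TAC, against 13549 in WT Sham (2.61-fold lower, log2 difference -1.38 ± 0.23, adjusted p = 0.00599). Ckb, the brain cytosolic form, was not called (log2 difference 0.25 ± 0.18, adjusted p = 0.329). Nmrk2, a muscle kinase that makes NAD from nicotinamide riboside, had intensities of 9224 and 11872 in WT TAC, against 221 in WT Sham, but its 3 probes disagreed, with log2 differences between -1.38 and 6.63. Among 16 genes of NAD synthesis and use, Sirt3 and Sirt5, the mitochondrial deacylases, were not called (log2 differences -0.47 ± 0.17, adjusted p = 0.0744, and -0.35 ± 0.17, adjusted p = 0.163). In serine and one-carbon metabolism, Mthfd2, a mitochondrial folate enzyme, had 614 and 733 in WT TAC, against 281 in WT Sham (3.19-fold higher, log2 difference 1.68 ± 0.26, adjusted p = 0.00486). Aldh1l2, another mitochondrial folate enzyme, was at least 2.33-fold lower, with 148 and 140.3 in WT TAC, against 211 in WT Sham.

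Potassium channel genes were lower. Potassium currents repolarise the heart muscle cell after each beat. Of 18 measured subunits 10 were lower and 1 higher (median log2 difference -0.75, or -0.68 with the genes below background at their bounds, 0 higher and 10 lower when WT TAC replicate 1 was left out, 0 and 5 when replicate 2 was). Kcnip2, the partner of the transient outward channel, had intensities of 189.6 and 164 in WT TAC, against 346 in WT Sham (3.36-fold lower, log2 difference -1.75 ± 0.23, adjusted p = 0.00318). Kcnk3, a background channel, had 722 and 592 in WT TAC, against 1467 in WT Sham (2.48-fold lower, log2 difference -1.31 ± 0.21, adjusted p = 0.00547). Abcc9, the SUR2 subunit of the ATP-sensitive channel, had 572 and 594 in WT TAC, against 1495 in WT Sham (2.91-fold lower, log2 difference -1.54 ± 0.19, adjusted p = 0.00213). Kcnv2, a silent modifier subunit, fell below background in WT TAC (at least 3.53-fold lower). Kcnd2, a pore of the outward current, was not called (log2 difference -0.67 ± 0.29, adjusted p = 0.117), but was without WT TAC replicate 1 (adjusted p = 0.0287).

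Of 8 sodium, pacemaker and related channels, 4 were lower and 1 higher. Scn4b, the beta subunit of the sodium channel, had intensities of 671 and 397 in WT TAC, against 2436 in WT Sham (5.72-fold lower, log2 difference -2.52 ± 0.37, adjusted p = 0.00406). Hcn2, a pacemaker channel, was 3.52-fold lower. Among 23 genes of the sarcoplasmic reticulum, the calcium store of muscle, 5 were lower and 1 higher (1 higher and 3 lower when WT TAC replicate 1 was left out, 0 and 1 when replicate 2 was). Hrc, a calcium-binding protein of that store, had 7623 and 6403 in WT TAC, against 17064 in WT Sham (2.46-fold lower, log2 difference -1.30 ± 0.18, adjusted p = 0.00361) and was the lower gene that stayed called when either WT TAC array was left out. The calcium pump Atp2a2 (SERCA2) had intensities of 37022 and 34161 in WT TAC, against 37710.4 in WT Sham, and its inhibitor Pln 6837 and 6415 in WT TAC, against 9139 in WT Sham, and neither was called (log2 differences -0.08 ± 0.17, adjusted p = 0.728, and -0.47 ± 0.19, adjusted p = 0.0979).

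Sarcomere and Z-disc genes were higher in part. Of 42 measured 15 were higher (35.7%) and 6 lower (14.3%, against 15.8% of all genes), with 11 higher and 4 lower when WT TAC replicate 1 was left out, 10 and 2 when replicate 2 was. Pdlim7 and Synpo2l, adaptor proteins of the Z-disc and actin filaments, were higher. Pdlim7 had intensities of 1533 and 1576 in WT TAC, against 397 in WT Sham (4.95-fold higher, log2 difference 2.31 ± 0.17, adjusted p = 0.000445). Synpo2l had 1926 and 1473 in WT TAC, against 418 in WT Sham (5.02-fold higher, log2 difference 2.33 ± 0.23, adjusted p = 0.00101). Tpm3, a tropomyosin of slow muscle and non-muscle cells, had 1552 and 1681 in WT TAC, against 550.0 in WT Sham (3.39-fold higher, log2 difference 1.76 ± 0.20, adjusted p = 0.00185). The lower side was led by Ky, a protein named for a mouse mutant with kyphoscoliosis, with 254 and 196 in WT TAC, against 1664 in WT Sham (13.2-fold lower, log2 difference -3.73 ± 0.29, adjusted p = 0.000479). Tnnt1, the slow skeletal troponin T, had 391 and 380.3 in WT TAC, against 945 in WT Sham (2.98-fold lower, log2 difference -1.58 ± 0.17, adjusted p = 0.00161). At the intercalated disc, which joins neighbouring muscle cells, 5 of 15 genes were lower (0 higher and 4 lower when WT TAC replicate 1 was left out, 0 and 2 when replicate 2 was). Among them, Gja5, the gap junction protein of conduction and atrial tissue, had 199 and 209 in WT TAC, against 336 in WT Sham (2.31-fold lower, log2 difference -1.21 ± 0.18, adjusted p = 0.00424). Gja1, the main ventricular gap junction protein, was not called (log2 difference -0.13 ± 0.19, adjusted p = 0.635).

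Of 23 cardiac transcription factors most were not called (2 higher and 5 lower, 1 higher and 4 lower when WT TAC replicate 1 was left out, 1 and 1 when replicate 2 was). Hopx, a homeodomain protein that restrains cardiac growth genes, had intensities of 3697 and 3022 in WT TAC, against 10491 in WT Sham (3.21-fold lower, log2 difference -1.68 ± 0.19, adjusted p = 0.00171). Runx1, known from blood development and re-expressed in stressed heart muscle, was at least 1.62-fold higher, with 193 and 181 in WT TAC, against 140.5 in WT Sham. Calcineurin signalling, a hypertrophic pathway that acts through NFAT factors, had 0 genes higher and 3 lower of 19 (0 higher and 0 lower when WT TAC replicate 1 was left out, 0 and 1 when replicate 2 was). The share of lower genes in that list, 15.8%, was that of all genes. The calcineurin target Rcan1 had 6611 and 6600.0 in WT TAC, against 4809 in WT Sham and was not called (log2 difference 0.47 ± 0.20, adjusted p = 0.114), while the mean of its probes gave a log2 difference of 0.85 (adjusted p = 0.0113).

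Stretch-response genes of the Hippo pathway were higher in part. In that pathway the coactivators YAP and TAZ leave the cytosol when cells are stretched and work through TEAD factors, which bind a short DNA element known as the MCAT box. Of 17 measured genes 8 were higher and 1 lower (median log2 difference 0.64). Ankrd1, a titin-bound protein that moves to the nucleus, had intensities of 34022 and 32786 in WT TAC, against 14856 in WT Sham (2.26-fold higher, log2 difference 1.17 ± 0.18, adjusted p = 0.00444). Ccn1, a secreted matricellular target, had 752 and 959 in WT TAC, against 327 in WT Sham (3.33-fold higher, log2 difference 1.73 ± 0.24, adjusted p = 0.0036). Fjx1, a secreted kinase relative, was at least 2.35-fold higher. Tead1 had 2507 and 1917 in WT TAC, against 3027 in WT Sham and Wwtr1 (TAZ) 2457 and 2196 in WT TAC, against 1505 in WT Sham, and neither was called (log2 differences -0.49 ± 0.21, adjusted p = 0.128, and 0.66 ± 0.24, adjusted p = 0.0774). Tead4, from the list of cardiac transcription factors and below background in WT Sham, had 165 and 162 in WT TAC, against 130.2 in WT Sham (at least 1.17-fold higher, adjusted p = 0.011), with an adjusted p of 0.0502 without WT TAC replicate 1 and 0.0511 without replicate 2. Amotl2, a target and inhibitor of YAP, was at least 1.93-fold lower. The promoters of Ankrd1 and Myh7, the fetal myosin heavy chain with intensities of 3051 and 2911 in WT TAC, against 342 in WT Sham, are printed for the MCAT core CATTCC, which stands here as its reverse complement in capitals. They are RefSeq sequences of GRCm38.p6, 5′ to 3′ on the gene's own strand. For a gene with several start sites, a promoter that holds the motif was the one printed. In the shares below, a gene counts if any of its promoters holds the motif. Ankrd1 (chr19:36119795-36120094, minus strand) holds the core 210 and 123 bases before its start. Myh7 (chr14:54994577-54994876, minus strand) holds it 201 bases before the printed start, 1 of 2 given for the gene.
Ankrd1: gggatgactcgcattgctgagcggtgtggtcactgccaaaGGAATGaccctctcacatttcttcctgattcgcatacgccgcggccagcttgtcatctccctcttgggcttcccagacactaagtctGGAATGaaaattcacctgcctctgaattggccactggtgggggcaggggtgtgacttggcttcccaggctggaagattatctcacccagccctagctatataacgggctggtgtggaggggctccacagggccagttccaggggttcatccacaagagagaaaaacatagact
Myh7: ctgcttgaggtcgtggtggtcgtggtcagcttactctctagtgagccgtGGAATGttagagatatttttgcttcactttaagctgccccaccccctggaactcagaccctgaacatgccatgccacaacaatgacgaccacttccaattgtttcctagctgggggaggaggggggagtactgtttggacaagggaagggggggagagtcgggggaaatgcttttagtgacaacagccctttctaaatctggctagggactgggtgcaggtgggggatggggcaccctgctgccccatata
CATTCC, searched on both strands of the 300 bases, occurred in 16.6% of all 27025 genes with a promoter in the table, in 14.8% of the tested genes, in 9 of the 13 stretch-response genes with a promoter (69.2%) and in 15 of 37 sarcomere genes (40.5%). These are matches of letters and not binding sites. The list was drawn up from known targets, so its share describes the list and is not a result of these arrays.

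Genes of the actin cytoskeleton outside the sarcomere were mostly higher. Of 40 actin, annexin and S100 genes 24 were higher and 0 lower (median log2 difference 0.77, 22 higher and 0 lower when WT TAC replicate 1 was left out, 16 and 0 when replicate 2 was). Anxa1, a calcium-dependent membrane protein, had intensities of 336 and 348 in WT TAC, against 159 in WT Sham (4.34-fold higher, log2 difference 2.12 ± 0.16, adjusted p = 0.000479). Capg, an actin capping protein, had 836 and 1064 in WT TAC, against 323 in WT Sham (3.82-fold higher, log2 difference 1.93 ± 0.21, adjusted p = 0.0015). Cfl1, cofilin, which severs actin, was at least 4.62-fold higher. Focal adhesions, which tie actin to the matrix, had 12 of 31 genes higher and 3 lower (7 higher and 1 lower when WT TAC replicate 1 was left out, 7 and 1 when replicate 2 was), led by Actn1 (alpha-actinin 1, 4.35-fold) and paxillin (Pxn, 3.33-fold). The integrin Itga5 had 773 and 851 in WT TAC, against 335 in WT Sham (3.06-fold higher, log2 difference 1.61 ± 0.21, adjusted p = 0.00292). Itgb6, an epithelial integrin chain, was lower with 208 and 174 in WT TAC, against 958 in WT Sham (9.98-fold lower, log2 difference -3.32 ± 0.25, adjusted p = 0.000474).

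Tubulin and microtubule genes were mostly not called. Of 32 genes 8 were higher (25%, against 15.4% of all genes) and 4 lower (12.5%, against 15.8%), with 6 higher and 5 lower when WT TAC replicate 1 was left out, 2 and 3 when replicate 2 was. Tubb6, a tubulin of growing muscle and many non-muscle cells, had intensities of 2147 and 2221 in WT TAC, against 975 in WT Sham (2.39-fold higher, log2 difference 1.26 ± 0.19, adjusted p = 0.00419). Map1b, a microtubule-binding protein of developing cells, had 549 and 667 in WT TAC, against 228 in WT Sham (4.02-fold higher, log2 difference 2.01 ± 0.32, adjusted p = 0.0053). Tuba8 and Tuba4a, alpha-tubulins of adult muscle, were lower. Tuba8 had 1608 and 1250.3 in WT TAC, against 3914 in WT Sham (2.9-fold lower, log2 difference -1.54 ± 0.21, adjusted p = 0.00324). Tuba4a had 569 and 489 in WT TAC, against 1058 in WT Sham (2.25-fold lower, log2 difference -1.17 ± 0.22, adjusted p = 0.00967). Without WT TAC replicate 2 the adjusted p of Tuba4a was 0.0551.

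Immediate early genes were higher. These genes are switched on within minutes of a stimulus and normally fade within hours. Harvest was 3 weeks after surgery by the labels. What set these genes off was not tested, nor was it for the heat shock and cytokine genes below. Of 26 measured 20 were higher and 0 lower, and 6 of the 26 were below background in WT Sham (median log2 difference 1.90, or 1.59 with those at their bounds). In KO (KO TAC minus KO Sham) the median log2 difference of the 26 measured genes was 0.07. Fos had intensities of 1630.0 and 1750.0 in WT TAC, against 159 in WT Sham (28.5-fold higher, log2 difference 4.83 ± 0.21, adjusted p = 7.37e-05). Junb, its partner in the AP-1 factor, had 2165 and 2682 in WT TAC, against 253 in WT Sham (15.4-fold higher, log2 difference 3.95 ± 0.22, adjusted p = 0.000171). Egr2, a zinc finger factor, had 830.4 and 1182 in WT TAC, against 156 in WT Sham (16.8-fold higher, log2 difference 4.07 ± 0.27, adjusted p = 0.000369). All of these were near background in WT Sham or not far above it, and bright on both WT TAC arrays. Csrnp1, a nuclear protein induced by axin, was 10.4-fold higher. Jun, another AP-1 gene, was not called, with 402 and 497 in WT TAC, against 629 in WT Sham (log2 difference -0.62 ± 0.29, adjusted p = 0.143). Leaving out either WT TAC array left 19 of these genes called higher.

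The promoter of Egr2 is printed for the serum response element, the site through which SRF drives many immediate early genes. Egr2 (RefSeq, GRCm38.p6, chr10:67537619-67537918, plus strand) holds its core, the CArG box, in capitals. The box lies 72 bases before the printed start, 1 of 5 given for the gene.
Egr2: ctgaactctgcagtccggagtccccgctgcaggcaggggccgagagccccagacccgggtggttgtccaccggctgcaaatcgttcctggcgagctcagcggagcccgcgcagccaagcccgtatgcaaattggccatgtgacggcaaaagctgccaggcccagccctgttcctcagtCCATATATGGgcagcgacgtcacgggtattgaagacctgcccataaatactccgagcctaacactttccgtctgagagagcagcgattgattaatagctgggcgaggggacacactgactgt
The pattern searched for covers only some forms of the CArG box and leaves some positions open to any base. Searched on both strands, it occurred in 0.581% of all genes with a promoter and in 0.526% of those tested. Among the 22 immediate early genes with a promoter, 2 held it (Egr2 and Dusp5). Other forms of the box were not counted, so these shares are not those of all CArG boxes. The matches are of letters and are not binding sites.

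Stress pathways other than the early response did not move as one. In the integrated stress response, in which ATF4 turns on amino acid and oxidant genes, 8 of 15 genes were higher and 0 lower (5 higher and 0 lower when WT TAC replicate 1 was left out, 5 and 0 when replicate 2 was). Chac1, which degrades glutathione, had intensities of 1384 and 1459 in WT TAC, against 177 in WT Sham (17.9-fold higher, log2 difference 4.16 ± 0.35, adjusted p = 0.000604). Nupr1, a small chromatin protein of stressed cells, had 2629.8 and 3489 in WT TAC, against 406 in WT Sham (9.67-fold higher, log2 difference 3.27 ± 0.22, adjusted p = 0.00037). Cebpb had 10329 and 9829 in WT TAC, against 1678 in WT Sham (6.33-fold higher, log2 difference 2.66 ± 0.33, adjusted p = 0.00221). Both WT TAC arrays were above WT Sham for all of these. Atf4 itself had 3632 and 3101 in WT TAC, against 2241 in WT Sham and was not called (log2 difference 0.61 ± 0.20, adjusted p = 0.059). The other members not called were Atf5 and Vldlr and, named after their values were seen, Cebpg, Ddit3, Ppp1r15b and Trib3. The ER list below was called at shares under those of all genes (12% each way, against 15.4% higher and 15.8% lower). Chaperones of the ER, the first compartment of secretion, had 3 of 25 higher and 3 lower (2 higher and 1 lower when WT TAC replicate 1 was left out, 0 and 1 when replicate 2 was), and Herpud1, Hsp90b1 and Pdia3 were not called (log2 differences -0.09 ± 0.17, adjusted p = 0.726, then -0.17 ± 0.19, adjusted p = 0.524, and 0.17 ± 0.16, adjusted p = 0.455). The proteasome had 3 of 34 subunits higher and 0 lower (1 higher and 0 lower when WT TAC replicate 1 was left out, 0 and 0 when replicate 2 was).

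Several inducible heat shock genes were lower. Of 26 measured 7 were lower and 2 higher (0 higher and 5 lower when WT TAC replicate 1 was left out, 0 and 5 when replicate 2 was). Hsph1, an HSP110 chaperone, had intensities of 985 and 853 in WT TAC, against 4761 in WT Sham (5.73-fold lower, log2 difference -2.52 ± 0.36, adjusted p = 0.00388). Hspa1a, the inducible HSP70, had 259 and 339 in WT TAC, against 1296 in WT Sham (6.23-fold lower, log2 difference -2.64 ± 0.50, adjusted p = 0.00994). Dnajb1, its cochaperone, had 1188 and 1155 in WT TAC, against 4161 in WT Sham (3.8-fold lower, log2 difference -1.93 ± 0.20, adjusted p = 0.00122). WT Sham was the high array for all of these. Hspa1b, a near-identical copy of Hspa1a named after its values were seen, was not called (log2 difference -0.73 ± 0.26, adjusted p = 0.0724) except without WT TAC replicate 2 (adjusted p = 0.0329), and signal may be shared between the pair. Chordc1, a partner of HSP90, followed (2.71-fold lower). The small heat shock proteins of muscle, Cryab, Hspb6 and Hspb8, were not called (log2 differences 0.07 ± 0.17, adjusted p = 0.795, then 0.09 ± 0.16, adjusted p = 0.709, and 0.04 ± 0.17, adjusted p = 0.881).

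Clock genes differed between WT TAC and WT Sham. In the circadian clock, BMAL1 (Arntl) and CLOCK switch on the Per genes and output factors such as Dbp, which then peak as Arntl ebbs. Of 13 measured genes 8 were higher and 2 lower (median log2 difference 0.81, 6 higher and 2 lower when WT TAC replicate 1 was left out, 7 and 1 when replicate 2 was). Dbp had intensities of 4056 and 3814 in WT TAC, against 622 in WT Sham (7.39-fold higher, log2 difference 2.88 ± 0.32, adjusted p = 0.00162). Per2 had 599 and 646 in WT TAC, against 190.2 in WT Sham (5.99-fold higher, log2 difference 2.58 ± 0.28, adjusted p = 0.0015). Per1 had 1104 and 1097 in WT TAC, against 336 in WT Sham (4.29-fold higher, log2 difference 2.10 ± 0.20, adjusted p = 0.000888). Both WT TAC arrays were thus high in the outputs of the clock. Arntl, which drives them, was low in WT TAC, with 199 and 211 in WT TAC, against 629 in WT Sham (5.21-fold lower, log2 difference -2.38 ± 0.18, adjusted p = 0.000474). Nr1d1, a repressor of Arntl, and Cry2, a repressor that partners the Per proteins, were not called (log2 differences 0.02 ± 0.20, adjusted p = 0.958, and 0.01 ± 0.24, adjusted p = 0.976). In KO (KO TAC minus KO Sham) the median log2 difference of the 13 measured genes was 0.03. The labels give a light cycle but no hour of harvest, so surgery and hour of harvest cannot be told apart.

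The promoter of Per1 is printed for the E-box CACGTG, which BMAL1 and CLOCK bind. Per1 (RefSeq, GRCm38.p6, chr11:69098699-69098998, plus strand) holds it 166 bases before the printed start, 1 of 2 given for the gene.
Per1: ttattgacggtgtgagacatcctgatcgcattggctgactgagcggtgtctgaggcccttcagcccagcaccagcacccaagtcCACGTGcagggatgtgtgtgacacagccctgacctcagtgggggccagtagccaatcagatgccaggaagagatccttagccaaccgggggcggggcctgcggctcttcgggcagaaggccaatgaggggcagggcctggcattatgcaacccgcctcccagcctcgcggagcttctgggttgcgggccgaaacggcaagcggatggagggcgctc
The E-box occurred in 8.09% of all genes with a promoter, in 12.1% of those tested and in 3 of the 11 clock genes with a promoter (Per1, Tef and Ciart).

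**Figure D3:**
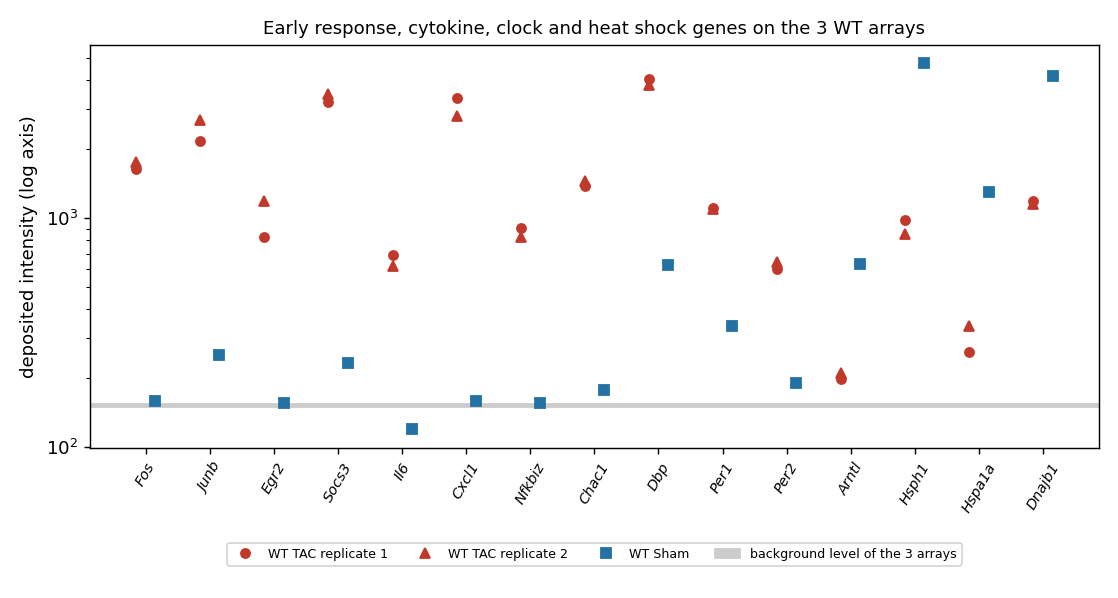
Deposited intensity (log axis) of 15 early response, cytokine, clock and heat shock genes on WT TAC replicate 1 (circles), WT TAC replicate 2 (triangles) and WT Sham (squares), with the background level as a grey band. The WT TAC arrays lie above WT Sham from Fos to Per2 and below it from Arntl to Dnajb1.

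Cytokine genes were higher in part. Of 29 interleukins, gp130 cytokines and receptors 14 were higher (48.3%) and 5 lower (17.2%, against 15.8% of all genes), and 9 of the 29 were below background in WT Sham. Socs3, the feedback inhibitor of gp130 signalling, had intensities of 3213 and 3499 in WT TAC, against 232 in WT Sham (25.4-fold higher, log2 difference 4.67 ± 0.17, adjusted p = 5.96e-05). Il6 had 692 and 616 in WT TAC, against 119 in WT Sham (at least 10.7-fold higher, adjusted p = 0.000246), Osm, another gp130 cytokine, was at least 3.4-fold higher, and Il33, an alarmin of fibroblasts and endothelium, had 707 and 506 in WT TAC, against 173 in WT Sham (7.12-fold higher, log2 difference 2.83 ± 0.39, adjusted p = 0.00344). Il15, a cytokine of lymphocytes, went the other way, with 868 and 701 in WT TAC, against 1639 in WT Sham (2.27-fold lower, log2 difference -1.18 ± 0.21, adjusted p = 0.00812). So did Ctf1 (cardiotrophin 1), with 231 and 214 in WT TAC, against 369.6 in WT Sham (2.25-fold lower, log2 difference -1.17 ± 0.18, adjusted p = 0.00473). Stat3, the factor that gp130 activates, was not called (log2 difference 0.47 ± 0.21, adjusted p = 0.135).

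NF-kB, a central factor of inflammation, is held in check by genes that it switches on itself. Nfkbiz had intensities of 909 and 829 in WT TAC, against 155 in WT Sham (14.9-fold higher, log2 difference 3.89 ± 0.22, adjusted p = 0.000188). Nfkbia, the inhibitor IkB alpha, had 2425 and 2531 in WT TAC, against 562 in WT Sham (5.18-fold higher, log2 difference 2.37 ± 0.24, adjusted p = 0.00119). Tnfaip3 (A20) was at least 2.41-fold higher. Of 26 TNF and NF-kB genes 12 were higher and 5 lower (10 higher and 2 lower when WT TAC replicate 1 was left out, 8 and 2 when replicate 2 was). Of 25 chemokines and receptors 13 were higher and 2 lower (9 higher and 1 lower when WT TAC replicate 1 was left out, 10 and 2 when replicate 2 was), and 8 of the 25 were below background in WT Sham. Cxcl2, which draws neutrophils, had 383 and 405 in WT TAC, against 125 in WT Sham (at least 5.68-fold higher, adjusted p = 9.91e-05). Ccl17, which draws T cells, had 201 and 234 in WT TAC, against 116 in WT Sham (at least 2.21-fold higher, adjusted p = 0.000849). Cxcl12, the homeostatic chemokine of stroma, was lower on its brightest probe, with 2769 and 2799.6 in WT TAC, against 7397 in WT Sham (2.72-fold lower, log2 difference -1.44 ± 0.16, adjusted p = 0.00164), while another of its probes lay at 0.24. Ccl7 and Ccl11 were not called (log2 differences -0.11 ± 0.24, adjusted p = 0.757, and 0.00 ± 0.30, adjusted p = 0.999).

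Neutrophil markers were higher with these genes. Of 9 measured (15 listed) 8 were higher, and 6 of the 9 were below background in WT Sham, so their count is a description and not a test of the cell type. S100a8 and S100a9, the paired calcium-binding proteins of neutrophils, were higher. S100a8 had intensities of 4431 and 6985 in WT TAC, against 303 in WT Sham (27.3-fold higher, log2 difference 4.77 ± 0.55, adjusted p = 0.00181). S100a9 had 1799.7 and 3349 in WT TAC, against 218 in WT Sham (20.4-fold higher, log2 difference 4.35 ± 0.52, adjusted p = 0.00201). Replicate 2 was the higher array for both. Lcn2, made by neutrophils and also by stressed muscle cells, had 2611 and 2804 in WT TAC, against 237 in WT Sham (19.5-fold higher, log2 difference 4.28 ± 0.16, adjusted p = 5.96e-05). Macrophage genes had 11 of 22 higher and 0 lower (8 higher and 0 lower when WT TAC replicate 1 was left out, 5 and 0 when replicate 2 was), among them Gpnmb, a protein of lipid-loaded macrophages, with 382 and 586 in WT TAC, against 187 in WT Sham (4.37-fold higher, log2 difference 2.13 ± 0.32, adjusted p = 0.00447), while the near-identical lysozyme genes Lyz1 and Lyz2 were not called (log2 differences 0.34 ± 0.16, adjusted p = 0.155, and 0.40 ± 0.20, adjusted p = 0.178).

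Interferon-induced genes were called at shares close to those of all genes. Of 29 measured 5 were higher (17.2%, against 15.4% of all genes) and 6 lower (20.7%, against 15.8%), with a median log2 difference of -0.02 (4 higher and 2 lower when WT TAC replicate 1 was left out, 2 and 2 when replicate 2 was). Ifitm2, a membrane protein that blocks viruses, had intensities of 6525 and 7571 in WT TAC, against 2657 in WT Sham (2.71-fold higher, log2 difference 1.44 ± 0.22, adjusted p = 0.0046). Irf8, a factor of myeloid cells, had 313 and 353 in WT TAC, against 174 in WT Sham (3.24-fold higher, log2 difference 1.70 ± 0.19, adjusted p = 0.00172). Other interferon targets were lower in WT TAC. Irf1, an interferon gamma target, had 412 and 471 in WT TAC, against 1378 in WT Sham (3.78-fold lower, log2 difference -1.92 ± 0.18, adjusted p = 0.000952). Parp14 had 307 and 308 in WT TAC, against 563 in WT Sham (2.25-fold lower, log2 difference -1.17 ± 0.17, adjusted p = 0.00395). The complement genes were higher in 7 of 12 cases (4 higher and 0 lower when WT TAC replicate 1 was left out, 3 and 0 when replicate 2 was), led by Masp1, a protease of the lectin pathway, with 1623 and 1800.4 in WT TAC, against 645 in WT Sham (2.97-fold higher, log2 difference 1.57 ± 0.17, adjusted p = 0.00147).

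Adhesion molecules of activated endothelium were higher. Selp (P-selectin) and Sele (E-selectin), which catch rolling leukocytes, were below background in WT Sham. Selp had intensities of 954 and 800.4 in WT TAC, against 128 in WT Sham (at least 15.1-fold higher, adjusted p = 5.96e-05). Sele had 326 and 301 in WT TAC, against 124 in WT Sham (at least 4.1-fold higher, adjusted p = 0.000171). Icam1, which holds them fast, had 1455 and 1531 in WT TAC, against 374 in WT Sham (5.13-fold higher, log2 difference 2.36 ± 0.20, adjusted p = 0.000618). The SOX factors of endothelium went opposite ways. Sox17, which marks arteries, had 1529 and 1544 in WT TAC, against 269 in WT Sham (8.68-fold higher, log2 difference 3.12 ± 0.17, adjusted p = 0.000171). Sox18 had 309.7 and 431 in WT TAC, against 1125 in WT Sham (3.93-fold lower, log2 difference -1.98 ± 0.28, adjusted p = 0.0038). Cldn5, the tight junction protein, had 6217 and 5724 in WT TAC, against 1531 in WT Sham (4.11-fold higher, log2 difference 2.04 ± 0.19, adjusted p = 0.000952). In all 12 of 27 endothelial genes were higher and 2 lower (11 higher and 1 lower when WT TAC replicate 1 was left out, 10 and 1 when replicate 2 was), and Ly6c1 and Ramp2 were not called (log2 differences 0.13 ± 0.24, adjusted p = 0.722, and 0.27 ± 0.21, adjusted p = 0.383).

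Angiogenic ligands and receptors, 32 in number, gave 6 higher and 5 lower (4 higher and 3 lower when WT TAC replicate 1 was left out, 4 and 2 when replicate 2 was). These shares, 18.8% higher and 15.6% lower, were near those of all genes (15.4% and 15.8%). Hbegf, an EGF-family growth factor shed from the membrane, had intensities of 1343 and 1423 in WT TAC, against 384 in WT Sham (4.55-fold higher, log2 difference 2.19 ± 0.16, adjusted p = 0.000463). Aplnr, the apelin receptor, had 132 and 158 in WT TAC, against 362 in WT Sham and was called lower (log2 difference -2.70, adjusted p = 0.00257), and as WT TAC replicate 1 was below background and only replicate 2 above it, the size of the difference is uncertain. Pdgfb, a platelet-derived growth factor, had 526 and 621 in WT TAC, against 1069.6 in WT Sham (2.07-fold lower, log2 difference -1.05 ± 0.21, adjusted p = 0.0126, and adjusted p = 0.054 without WT TAC replicate 1). Flt1, a VEGF receptor, and Vegfb were not called (log2 differences 0.34 ± 0.17, adjusted p = 0.166, and -0.45 ± 0.16, adjusted p = 0.0763). Among hypoxia factors and targets 7 of 26 were higher and 5 lower (5 higher and 4 lower when WT TAC replicate 1 was left out, 7 and 3 when replicate 2 was). Ndrg1 had 1256 and 1346 in WT TAC, against 476 in WT Sham (3.22-fold higher, log2 difference 1.69 ± 0.21, adjusted p = 0.00245). Bhlhe40, also a clock repressor, had 3603 and 4585 in WT TAC, against 865 in WT Sham (5.2-fold higher, log2 difference 2.38 ± 0.34, adjusted p = 0.00402). Ankrd37 had 153 and 175 in WT TAC, against 350.0 in WT Sham (4.16-fold lower, log2 difference -2.06 ± 0.30, adjusted p = 0.00425). Egln3, an oxygen sensor that hypoxia induces, was not called (log2 difference -0.49 ± 0.19, adjusted p = 0.0867).

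Hormone and vasoactive signalling genes included large rises and smaller falls (log2 differences from -1.13 to 2.99). Of 35 adrenergic, angiotensin and endothelin genes 9 were higher (25.7%) and 8 lower (22.9%), with 6 higher and 3 lower when WT TAC replicate 1 was left out, 6 and 2 when replicate 2 was. Ace, which makes angiotensin II, had intensities of 1944 and 2493 in WT TAC, against 367 in WT Sham (7.96-fold higher, log2 difference 2.99 ± 0.24, adjusted p = 0.000511). Ednrb, an endothelin receptor, had 4478 and 4570.0 in WT TAC, against 1027 in WT Sham (4.79-fold higher, log2 difference 2.26 ± 0.17, adjusted p = 0.000445), and the cAMP phosphodiesterase Pde4b 672 and 644 in WT TAC, against 204 in WT Sham (5.5-fold higher, log2 difference 2.46 ± 0.16, adjusted p = 0.000364). Adcy6, a main cardiac adenylyl cyclase, was lower, with 634 and 526 in WT TAC, against 1109 in WT Sham (2.12-fold lower, log2 difference -1.09 ± 0.20, adjusted p = 0.00931).

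In insulin and IGF signalling 7 of 24 genes were higher and 3 lower. The IGF-binding proteins Igfbp3, Igfbp6 and Igfbp7 were 7.06-fold, 3.64-fold and 3.14-fold higher, with intensities of 1257 and 1487 in WT TAC, against 282 in WT Sham for Igfbp3, and Igfbp5 was not called (log2 difference 0.43 ± 0.34, adjusted p = 0.381). Irs2, an insulin receptor substrate, had 979 and 940.1 in WT TAC, against 320.1 in WT Sham (3.95-fold higher, log2 difference 1.98 ± 0.17, adjusted p = 0.000724). Eif4ebp1, the translation repressor that mTOR switches off, had 5889 and 6282 in WT TAC, against 2160.1 in WT Sham (2.91-fold higher, log2 difference 1.54 ± 0.18, adjusted p = 0.00186), and its relative Eif4ebp2 319 and 329 in WT TAC, against 842 in WT Sham (3.35-fold lower, log2 difference -1.74 ± 0.17, adjusted p = 0.00109). Grb14, an inhibitor of the insulin receptor, was 2.04-fold lower.

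Of the secreted Wnt modulators, Dkk3, Sfrp1, Sfrp2 and Frzb were higher. Wif1, named after its values were seen, was not called (log2 difference -0.52 ± 0.18, adjusted p = 0.0711). Dkk3 had intensities of 1922 and 2138 in WT TAC, against 204 in WT Sham (19.1-fold higher, log2 difference 4.26 ± 0.39, adjusted p = 0.000844). Sfrp1 had 1182 and 1365 in WT TAC, against 292 in WT Sham (6.18-fold higher, log2 difference 2.63 ± 0.27, adjusted p = 0.00131). Sfrp2 and Frzb, both below background in WT Sham, were at least 5.96-fold and at least 5.47-fold higher. The receptor Fzd5 was lower, with 209 and 194 in WT TAC, against 411 in WT Sham (3.15-fold lower, log2 difference -1.65 ± 0.18, adjusted p = 0.00144). So was the ligand Wnt5a, with 174 and 170.4 in WT TAC, against 299.8 in WT Sham (2.87-fold lower, log2 difference -1.52 ± 0.17, adjusted p = 0.00164). Axin2, a feedback target of the pathway, was at least 1.9-fold lower. Of 16 genes measured 4 were higher and 3 lower, and the same counts held when either WT TAC array was left out. For the TGF-beta superfamily, 9 of 26 activin, BMP and SMAD genes were higher and 2 lower, and 8 of 12 TGF-beta genes were higher and 1 lower (8 higher and 0 lower when WT TAC replicate 1 was left out, 6 and 0 when replicate 2 was). Bmp4 had 1560.0 and 1859 in WT TAC, against 329 in WT Sham (7.11-fold higher, log2 difference 2.83 ± 0.22, adjusted p = 0.000506), and the binding proteins Fstl1 and Fstl3 were 5.3-fold and at least 5.79-fold higher. Tgfb2 had 771 and 767 in WT TAC, against 221 in WT Sham (5.67-fold higher, log2 difference 2.50 ± 0.17, adjusted p = 0.000373), and the co-receptor Tgfbr3 was not called (log2 difference -0.08 ± 0.18, adjusted p = 0.759). Sphk1, the kinase that makes sphingosine-1-phosphate, had 2660.2 and 2505 in WT TAC, against 193 in WT Sham (27.8-fold higher, log2 difference 4.80 ± 0.19, adjusted p = 5.96e-05). Of 13 genes of that lipid pathway 3 were higher and 0 lower (3 higher and 1 lower when WT TAC replicate 1 was left out, 2 and 0 when replicate 2 was).

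Genes for enzymes that cut or modify the matrix, taken with their inhibitors, receptors and cofactors, were mostly higher. Of 16 plasminogen, serpin and coagulation genes 12 were higher and 1 lower (median log2 difference 1.25). Serpina3n, a protease inhibitor of injured tissue, had intensities of 14054 and 16139 in WT TAC, against 924 in WT Sham (18.2-fold higher, log2 difference 4.19 ± 0.17, adjusted p = 6.87e-05). Serpinf1 (PEDF), an inhibitor of vessel growth, had 9774 and 11743 in WT TAC, against 1459 in WT Sham (7.83-fold higher, log2 difference 2.97 ± 0.19, adjusted p = 0.000289). Plaur, the urokinase receptor, was at least 8.46-fold higher, while Plau, urokinase itself, had 146 and 138 in WT TAC, against 156 in WT Sham and was not called (adjusted p = 0.154). Of 25 metalloproteases and inhibitors 16 were higher and 3 lower. The proteoglycan-cutting Adamts1 and Adamts9 were higher. Adamts1 had 681 and 646 in WT TAC, against 163 in WT Sham (9.36-fold higher, log2 difference 3.23 ± 0.17, adjusted p = 0.000164). Adamts9 had 3430.2 and 3367 in WT TAC, against 767 in WT Sham (4.97-fold higher, log2 difference 2.31 ± 0.19, adjusted p = 0.000614). Adamts4 was at least 11.3-fold higher. Has1, a hyaluronan synthase, was at least 7.47-fold higher, and Cd44, the hyaluronan receptor, had 934 and 846 in WT TAC, against 257 in WT Sham (5.12-fold higher, log2 difference 2.36 ± 0.25, adjusted p = 0.0014). Sulf1, which trims sulfate from heparan chains, had 1053 and 1094 in WT TAC, against 312 in WT Sham (4.64-fold higher, log2 difference 2.21 ± 0.17, adjusted p = 0.000493). Sulf2 was not called (log2 difference 0.08 ± 0.17, adjusted p = 0.758). Beside these, 20 of 25 collagen chains and 25 of 33 matricellular genes were higher and none was lower. Of these lists 8 collagens and 10 matricellular genes were below background in WT Sham.

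Among cell cycle genes, G1 cyclins, CDK inhibitors and p53 targets were more often higher than all genes were (34.8%, against 15.4%). They were lower at a share near that of all genes (13%, against 15.8%). Replication and mitosis genes were higher at a share near that of all genes (13.6%, against 15.4%). Of 23 G1 cyclins, CDK inhibitors and p53 targets 8 were higher and 3 lower (6 higher and 3 lower when WT TAC replicate 1 was left out, 5 and 2 when replicate 2 was), and of 22 replication and mitosis genes 3 were higher and 0 lower (1 higher and 0 lower when WT TAC replicate 1 was left out, 1 and 0 when replicate 2 was). Cdkn1a (p21) had intensities of 5528 and 5046 in WT TAC, against 1749 in WT Sham (3.15-fold higher, log2 difference 1.65 ± 0.22, adjusted p = 0.00321). Cdkn2b (p15) had 242 and 285 in WT TAC, against 157 in WT Sham (2.99-fold higher, log2 difference 1.58 ± 0.22, adjusted p = 0.00344). The cyclins Ccnd1 and Ccnd2 were not called (log2 differences 0.11 ± 0.20, adjusted p = 0.713, and -0.35 ± 0.27, adjusted p = 0.363). Tyms, thymidylate synthase, had 316 and 338 in WT TAC, against 195 in WT Sham (2.44-fold higher, log2 difference 1.28 ± 0.17, adjusted p = 0.00275).

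Oxidant and iron genes gave large single changes. Nox4, an oxidase that makes hydrogen peroxide, and Mt2, a metal-binding thionein, were below background in WT Sham. Nox4 had intensities of 446 and 618 in WT TAC, against 128 in WT Sham (at least 8.22-fold higher, adjusted p = 0.000373). Mt2 had 1059.8 and 952 in WT TAC, against 153 in WT Sham (at least 17.6-fold higher, adjusted p = 0.000246). Hmox1, which degrades heme, had 484 and 433 in WT TAC, against 181 in WT Sham (4.6-fold higher, log2 difference 2.20 ± 0.18, adjusted p = 0.000585). Slc40a1 (ferroportin), which exports iron, had 304 and 255 in WT TAC, against 984 in WT Sham (5.05-fold lower, log2 difference -2.34 ± 0.22, adjusted p = 0.000966). Hmox1 was thus higher and Slc40a1 lower. Trf, transferrin, had 1411 and 2150.0 in WT TAC, against 436 in WT Sham (4.92-fold higher, log2 difference 2.30 ± 0.33, adjusted p = 0.00374). Fth1, the ferritin heavy chain, was not called (log2 difference 0.06 ± 0.16, adjusted p = 0.795). Gstk1, a mitochondrial and peroxisomal glutathione transferase, had 3114 and 2402 in WT TAC, against 6999 in WT Sham (2.62-fold lower, log2 difference -1.39 ± 0.21, adjusted p = 0.00444). Of 39 antioxidant genes 13 were higher and 4 lower (9 higher and 1 lower when WT TAC replicate 1 was left out, 4 and 1 when replicate 2 was).

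**Figure D4:**
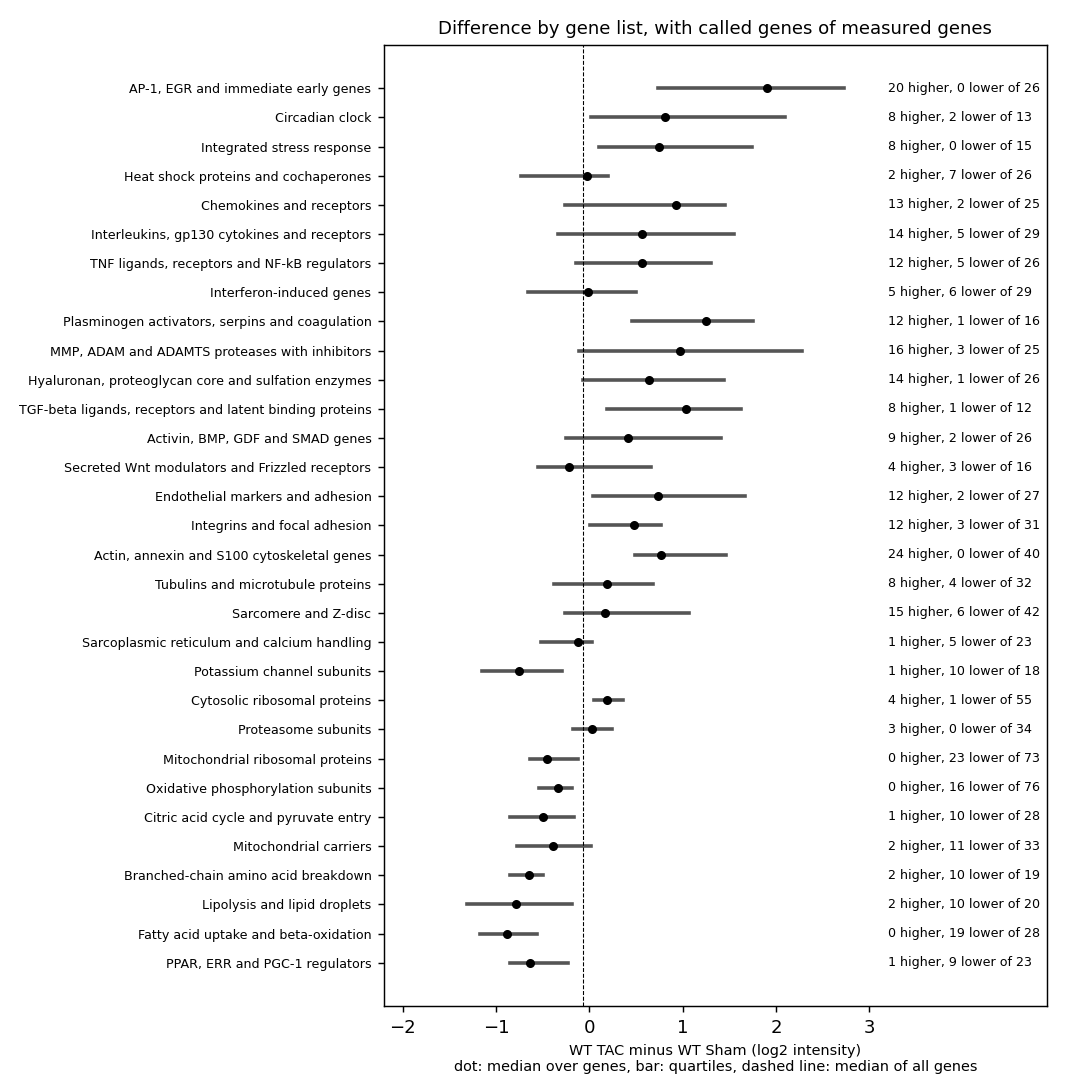
Median (dot) and quartiles (bar) of the log2 difference, WT TAC minus WT Sham, over the measured genes of 31 gene lists, with the number called higher and lower of those measured at right and the median of all genes as a dashed line. The list of immediate early genes lies farthest to the right (median 1.90), and that of fatty acid uptake and beta-oxidation farthest to the left (median -0.88).

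Many called genes belonged to none of the 85 lists, 2264 against 742 within them. The lists held 1824 of the 9625 tested genes, so calls were more frequent within them than outside. The lists were chosen with earlier results of these data known. Among the genes that moved far on both arrays was AA467197, a small mitochondrial protein of inflamed tissue, below background in WT Sham, with intensities of 2727 and 2532 in WT TAC, against 141 in WT Sham (at least 49.4-fold higher, adjusted p = 5.96e-05). On the lower side Whrn (whirlin, a scaffold protein) had 224 and 192 in WT TAC, against 1188 in WT Sham (10.5-fold lower, log2 difference -3.39 ± 0.22, adjusted p = 0.000348), and Kbtbd13, a muscle protein of thin filaments, fell below background in WT TAC (at least 6.63-fold lower). Scara5, a ferritin receptor of fibroblasts that is in the fibroblast list, had 186 and 159 in WT TAC, against 786 in WT Sham (10.1-fold lower, log2 difference -3.34 ± 0.26, adjusted p = 0.000481). Ano10, of the anoctamin family, had 312 and 368 in WT TAC, against 1838 in WT Sham (7.39-fold lower, log2 difference -2.89 ± 0.29, adjusted p = 0.00121). Of the 1123 genes with the WT TAC arrays on opposite sides, Dot1l, a histone H3 methyltransferase, was among the widest apart, at 0.50 on replicate 1 and -0.51 on replicate 2 (log2). Sox9, a factor of cartilage and matrix genes, was at -0.37 and 0.61.

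The response was set against that of the Kdm3a-KO hearts, which share no array with it. The log2 difference in WT (WT TAC minus WT Sham) exceeded that in KO (KO TAC minus KO Sham) for 810 genes (8.42%) and fell below it for 542 genes (5.63%) by the limma test of the difference itself. Of these, 801 and 531 were called higher and lower in WT, an overlap that is largely built in, since both tests hold the same WT difference. These counts depended on each WT TAC array, with 532 and 303 genes without replicate 1 and 359 and 137 without replicate 2. No gene was called between KO TAC and KO Sham by limma (before adjustment, p was under 0.05 for 124 higher and 128 lower genes). Over the genes called higher in WT the median log2 difference was 1.16 in WT and -0.02 in KO, and over those called lower -0.92 in WT and 0.00 in KO. Over all genes the KO median was -0.01. The genes were chosen by their WT difference, so the larger WT medians follow in part from that choice. By group, the difference between genotypes was called for 19 of 26 immediate early genes, 8 of 28 beta-oxidation genes, 6 of 18 potassium channel genes, 6 of 26 heat shock genes, 6 clock genes upward and 1 downward of 13, and 4 upward and 3 downward of 16 Wnt genes. Fos, for example, differed by 5.12 on the log2 scale (adjusted p = 0.000485), with 4.83 in WT and -0.29 in KO, and Ces1d by -5.48 (adjusted p = 0.000456), with -5.28 in WT and 0.20 in KO.

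**Figure D5:**
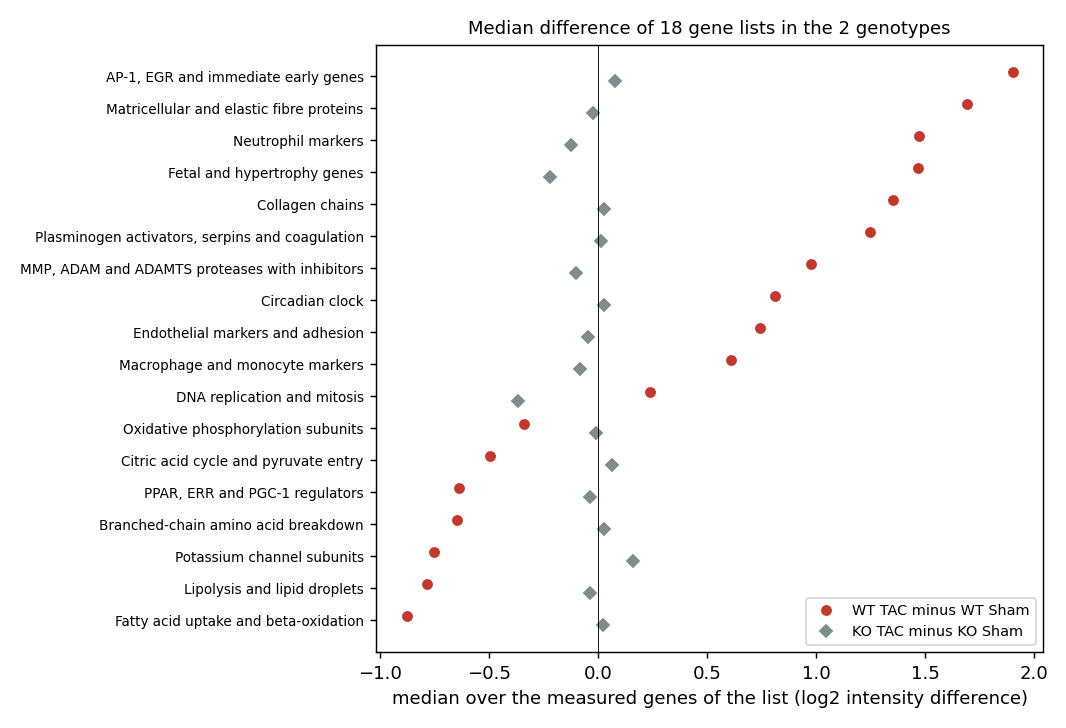
Median log2 difference of 18 gene lists in WT (WT TAC minus WT Sham, circles) and in KO (KO TAC minus KO Sham, diamonds). The WT medians run from 1.90 for immediate early genes to -0.88 for fatty acid uptake and beta-oxidation, and the KO medians from 0.16 for potassium channel subunits to -0.37 for DNA replication and mitosis.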

How the data were processed

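Left ventricular RNA was hybridised to 6 Illumina mouse bead arrays. The deposited values are probe intensities on a linear scale, which the authors exported with GenomeStudio 2011.1 (submitters' processing notes) and quantile normalized between arrays. No background subtraction was apparent in them. A second table holds 6 signal columns that tie to no sample and were not used. Background was corrected with limma 3.58.1 in R 4.3.3 (normexp, offset 16, with 1540 olfactory, vomeronasal and taste receptor probes as negative controls), followed by log2 and quantile normalization. Background on an array was percentile 99 of its receptor probes, and probes above it on at least 2 of 6 arrays were kept. The brightest of a gene's kept probes stood for the gene, by the symbols of the platform annotation (34885 of 45281 probes had 1 symbol). Limma was fitted with 1 coefficient per group over all 6 arrays and Benjamini-Hochberg adjustment over all genes. The scripts were tested on simulated data. The number of arrays limits the precision.

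The members and the gene lists were chosen with earlier results of these data known. From each list the text could name up to 5 higher and 5 lower called genes, ordered by the smaller of their 2 array differences, and up to 3 bright genes not called, plus the 12 most moved genes each way over all genes and 6 each way with the WT TAC arrays on opposite sides. Genes named outside that rule are said to be, apart from Dusp5, Tef and Ciart, which are named only as holders of a promoter motif. Promoters are RefSeq's (GRCm38.p6). The alternatives tried changed the background correction, normalization, filter, probe choice and arrays.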

Additional observations from a re-analysis of the deposited data

Results flagged for a closer look

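These results stood out because the TAC effect differed between the genotypes by the limma test of the difference itself, for 810 genes upward and 542 downward. The values are log2 differences, the effect in WT (WT TAC minus WT Sham) minus the effect in KO (KO TAC minus KO Sham). Among the genes that rose most on both WT TAC arrays it was 6.21 for Nmrk2, whose probes disagree, 6.06 for AA467197, 5.94 for Ptx3, 5.75 for Ch25h, 5.70 for Cxcl1, 5.35 for Stc1, 5.29 for Lox, 5.12 for Fos, 5.06 for Timp1, 5.06 for Lgals3, 4.96 for Sphk1 and 4.88 for Cd14. Among those that fell most it was -5.48 for Ces1d, -4.30 for Acot1, -4.21 for G0s2, -3.82 for Ky, -3.36 for Bambi-ps1, -3.28 for Scara5, -3.27 for Itgb6, -3.19 for Whrn, -3.11 for Ppp1r3b, -3.04 for Kbtbd13, -2.61 for Ano10 and -2.55 for Cryba4. Each genotype rests on 1 sham array. These genes were picked by their WT difference, which is part of each value, so large values follow in part from the choice.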

How the results depend on the processing

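Of the genes with values in the report, 181 were called, and none of these changed direction under any alternative in which it was measured. All stayed called at a background offset of 50, without the second normalization and with only the 3 WT arrays. Without background correction 180 did (lost for Tead4), and without the filter 179 (lost for Alas2 and Myh6). With the mean of a gene's probes 180 did, all but Acot2. With probes above background on all 3 WT arrays 152 did, and the rest were not measured. Leaving out WT TAC replicate 1 kept 177 of the calls (lost for Pdgfb, Prdm2, Tead4 and Tnni3). Leaving out replicate 2 kept 170 (lost for Alas2, Esrra, Myh6, Phf2, Ppargc1b, Prdm2, Slc2a4, Slc4a1, Tead4, Tnni3 and Tuba4a). Of the 63 genes with values that were not called, 11 were called under some alternative, in the same direction. These were Atf4, Egln3, Pln, Sirt3, Vegfb and Wwtr1 without background correction, and of them Atf4, Sirt3, Vegfb and Wwtr1 also at the offset of 50. Atf4, Pdk4 and Wwtr1 were called with only the 3 WT arrays or without either KO TAC array. Rcan1 was called with the mean of its probes, Kcnd2 and Ppara without WT TAC replicate 1, and Hspa1b without replicate 2. Genes over 2-fold on both WT TAC arrays were 404 higher and 173 lower without background correction, and 299 lower at an offset of 50. Without the filter the effect of TAC differed between genotypes for 437 genes upward and 199 downward (more genes were tested). With each replicate left out in turn, the counts ran from 820 to 1649 genes higher and from 629 to 1758 lower, from 779 to 948 over 2-fold higher and from 490 to 748 over 2-fold lower, and from 359 to 970 upward and 137 to 686 downward for the difference between genotypes. The share of calls that were higher was 45.8% to 56.6% over all alternatives. With 1 WT TAC array left out, the lone array was assumed to vary like the other groups. No paired analysis was possible because the sham arrays carry no replicate number. Signals near background and at the top of the scale limit fold sizes.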
